A study of Homo sapiens with 15 samples.

Results

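Fatty acid synthesis and desaturation were followed through 10 genes, named for their place in the pathway and not for any measured value: the transcription factor gene SREBF1, the acetyl-CoA suppliers ACLY and ACSS2, the carboxylase ACACA, the synthase FASN, the desaturases SCD, FADS1 and FADS2, and the elongases ELOVL5 and ELOVL6. These are 10 of the 62754 genes counted, and all 10 were among the 19781 genes with enough reads to be tested. RNA sequencing measured them in NCI-H69, a long-established human line derived from small cell lung carcinoma of the classic type. The cells received the vehicle DMSO, CS2 or FB23-2, with 3 libraries per group, described by the submitters as biological replicates. Both compounds are named as inhibitors of FTO, an RNA demethylase. CS2 is the compound brequinar, which blocks dihydroorotate dehydrogenase in pyrimidine synthesis. All 9 libraries come from a single cell line, and the labels give no dose and no time of treatment. The H82 line, also named in the study's design, was not analysed here.

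Fatty acids are built from acetyl-CoA, which ACLY makes from exported citrate and ACSS2 makes from acetate. ACACA carboxylates acetyl-CoA to malonyl-CoA, and FASN condenses both into palmitate. ELOVL6 lengthens palmitate, SCD puts the first double bond into saturated acyl chains, and FADS2, ELOVL5 and FADS1 act in turn on polyunsaturated chains. SREBF1 encodes SREBP1, a membrane-bound factor that is released by proteolysis when sterols are low and that is known to activate most genes of this pathway, sterol regulatory elements and NF-Y sites in their promoters being the textbook route.

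Promoter sequence was available from RefSeq (GRCh38.p14) for 9 of the 10 genes, all but FASN, as 14 start sites. The search covered the 250 bases before each start, on both strands. SCD and ELOVL5 are shown because their transcripts moved alike in these data, and both starts of ACSS2 because its transcript changed the most. ACLY and FADS2, whose transcripts moved alike more closely still, are not shown. Capitals mark matches to CCAAT (the NF-Y box, read ATTGG on the other strand), GGGCGG (the GC box, read CCGCCC on the other strand) and CACGTG (an E-box). Each sequence runs 5′ to 3′ on the strand of the gene, SCD at chr10:100346983-100347232 on the plus strand, ELOVL5 at chr6:53348951-53349200 on the minus strand, and ACSS2 at chr20:34874739-34874988 and chr20:34876362-34876611 on the plus strand.
SCD: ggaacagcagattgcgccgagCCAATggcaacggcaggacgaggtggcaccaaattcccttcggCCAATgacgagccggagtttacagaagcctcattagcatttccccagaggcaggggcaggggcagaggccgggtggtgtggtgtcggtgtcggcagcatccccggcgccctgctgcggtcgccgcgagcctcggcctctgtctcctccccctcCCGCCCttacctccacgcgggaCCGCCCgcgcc
ELOVL5: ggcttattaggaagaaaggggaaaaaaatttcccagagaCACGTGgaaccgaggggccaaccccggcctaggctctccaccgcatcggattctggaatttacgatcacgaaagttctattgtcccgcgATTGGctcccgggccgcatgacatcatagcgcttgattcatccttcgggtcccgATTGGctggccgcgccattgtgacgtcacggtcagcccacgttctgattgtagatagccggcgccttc
ACSS2 upstream start: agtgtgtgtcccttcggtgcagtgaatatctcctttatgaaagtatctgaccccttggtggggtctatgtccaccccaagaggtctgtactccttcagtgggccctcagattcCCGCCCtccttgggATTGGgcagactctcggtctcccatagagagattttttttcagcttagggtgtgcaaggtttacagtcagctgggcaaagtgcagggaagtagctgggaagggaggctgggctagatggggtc
ACSS2 downstream start: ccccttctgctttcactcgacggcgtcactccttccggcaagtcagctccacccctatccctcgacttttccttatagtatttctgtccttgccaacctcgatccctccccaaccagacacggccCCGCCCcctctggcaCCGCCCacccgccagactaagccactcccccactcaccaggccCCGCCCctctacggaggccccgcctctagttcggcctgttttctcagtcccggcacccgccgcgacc
The SCD window held 2 NF-Y boxes and 2 GC boxes. The ELOVL5 window held 2 NF-Y boxes and 1 E-box. The upstream ACSS2 window held 1 NF-Y box and 1 GC box, and the downstream window held 3 GC boxes and no NF-Y box.

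An NF-Y box was present in at least 1 start of 5 of the 9 genes (ACLY, ACSS2, ACACA, SCD and ELOVL5), and in 7 of the 14 starts of all 9 genes. The ACLY windows overlap, so that the same NF-Y boxes count at both of its starts, and the FADS2 windows also overlap. Genes with several starts were searched in more than the single windows set beside them. Of 35116 human promoter windows of the same length, 32.0% held one. The GC box was found for 8 of the 9 genes and in 11 of the 14 starts, against 42.6% of all windows, and the E-box for ELOVL5 alone, against 6.34%. None of the 9 genes had a match to the sterol regulatory element TCACNCCAC, which 0.883% of all windows held, or to TGATGNAA, a C/EBP-ATF response element held by 3.14%. Letters this rare would seldom be met in 14 windows, so finding none says little, and FASN was not searched. These matches describe letters in short windows, and no binding was measured.

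Library totals ran from 29916267 to 45022633 counts, so that 3 counts corresponded to 0.0666 to 0.101 CPM, counts scaled to a library of fixed size. FB23-2 replicate 2 stood apart: the chi-square of its counts against the other FB23-2 libraries was 45.1 to 47.1 per degree of freedom, while every other pair within a group stayed at or under 13.1. The mitochondrial share of counts was 5.18 to 5.69% with DMSO, 7.30 to 9.05% with CS2, 6.83% and 6.91% with FB23-2 replicates 1 and 3, and 10.97% in replicate 2. The 5 neuroendocrine markers reported (CHGA, SYP, INSM1, NCAM1 and DDC) were detected in every library. Their summed level was 2365 to 2574 CPM with DMSO, 1882 to 1953 with CS2 and 1797 to 1924 with FB23-2. The markers did not move as one: with CS2, 4 fell and SYP did not pass, and with FB23-2, 4 fell, DDC from 324 ± 17 to 53.7 ± 10.3 CPM (SD, n = 3), while NCAM1 rose from 543 ± 24 to 671 ± 77. Adipocyte and hepatocyte markers, the cell types best known for this pathway, summed to at most 0.265 and 0.209 CPM, with ADIPOQ at 0 in every library. Leukocyte markers summed to at most 1.62 CPM, endothelial ones to 0.263 and squamous ones to 2.76, with CD3E at 0. The sum of the fibroblast markers moved with treatment, at 52.6 to 54.3 CPM with DMSO, 32.9 to 39.5 with CS2 and 10.5 to 15.2 with FB23-2. Nearly all of it was COL1A2, with DCN at 0. COL1A1, at a low level, went the other way with FB23-2, from 0.538 ± 0.044 CPM with DMSO to 0.994 ± 0.23. The part of these shifts in the results below was not tested.

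Levels can be compared between genes only per length, as FPKM, which divides CPM by exon length in kilobases, here from the counts and the union of each gene's annotated exons. In DMSO libraries ACLY was the highest of the 10 at 179 ± 7.2 FPKM (SD, n = 3), above 99.1% of tested protein-coding genes. SCD (103 ± 9.8), FASN (98.0 ± 5.9) and ELOVL5 (94.9 ± 5.0) followed with overlapping libraries, then FADS2 (60.2 ± 5.8) and FADS1 (54.2 ± 2.7), which also overlapped. ACACA stood at 19.0 ± 0.94 FPKM and SREBF1 at 10.8 ± 1.0. ACSS2 (4.59 ± 0.44) and ELOVL6 (3.93 ± 0.29) were lowest and overlapped, each below the median tested protein-coding gene, with 47.9% and 44.4% of those genes beneath them. ACLY, SCD, FASN and ELOVL5 each stood above at least 97.8% of tested protein-coding genes, and ACACA above 82.7%. The order depends on the length used: per length of the longest principal transcript FADS2 was at 183 FPKM, second to ACLY, FADS1 at 123, and SCD, at 103, below both.

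**Figure D1:**
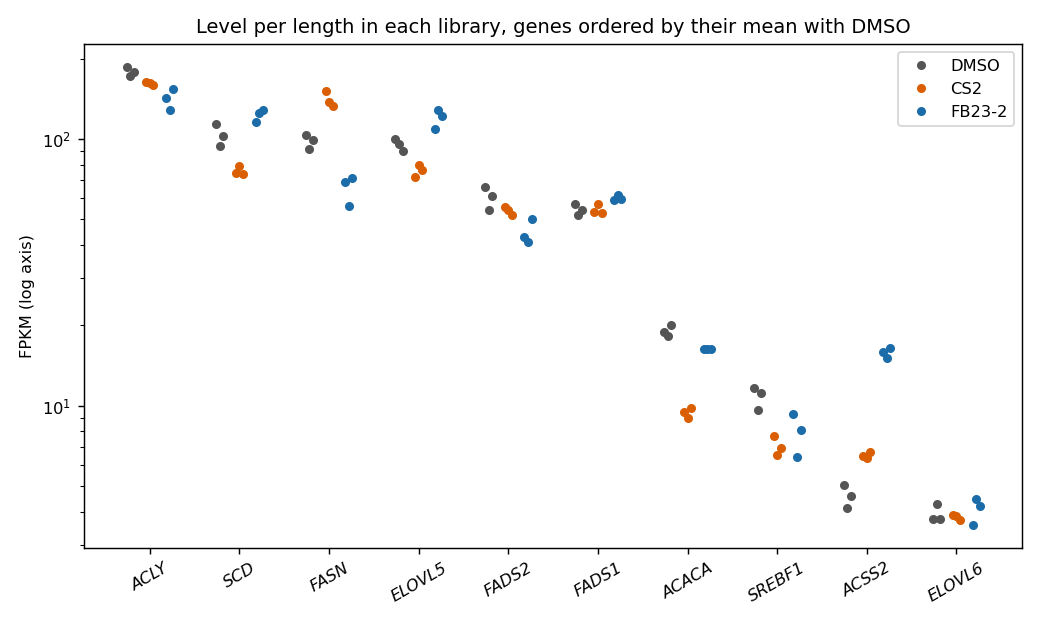
Level per exon length (FPKM, log axis) of each gene in each library, genes ordered from left to right by their mean with DMSO; each point is 1 library, grey for DMSO, orange for CS2 and blue for FB23-2. ACSS2 sits near ELOVL6 at the low end with DMSO and near ACACA with FB23-2, and FASN is above SCD with CS2 and below it with FB23-2.

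The order of levels changed with each compound. With CS2, FASN reached 141 ± 9.4 FPKM, close to ACLY at 161 ± 2.1, while ELOVL5 (76.2 ± 3.9) and SCD (75.8 ± 3.1) lay well under it. With FB23-2, SCD (123 ± 6.3) and ELOVL5 (120 ± 9.8) overlapped each other, the highest ELOVL5 library also reaching the lowest one of ACLY (142 ± 13), and FASN dropped to 65.3 ± 8.3, where its libraries overlapped those of FADS1 (60.0 ± 1.5). ACSS2 rose from 4.59 FPKM with DMSO to 6.52 ± 0.17 with CS2 and 15.8 ± 0.72 with FB23-2, where it overlapped ACACA at 16.4 ± 0.013. The close agreement of the 3 ACACA libraries with FB23-2 is tighter than in either other group. Summed over the 10 genes, the level was 595 to 664 FPKM with DMSO, 574 to 596 with CS2 and 582 to 630 with FB23-2, ranges that overlap between DMSO and each compound.

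CS2 was followed by lower ACACA, SREBF1, SCD and ELOVL5 and by higher FASN and ACSS2. Thus 6 of the 10 genes passed edgeR's quasi-likelihood test at a Benjamini-Hochberg adjusted p under 0.05, 2 higher and 4 lower, beside 49.7% of all genes tested (24.3% higher, 25.3% lower). The libraries of the groups did not overlap for 7 of the 10, beside 60.6% of all genes. The median log2 fold change of the 10 was -0.15, against -0.00 over all genes. FB23-2 was followed by higher ACSS2, SCD and ELOVL5 and by lower FASN, SREBF1, FADS2, ACLY and ACACA. Here 8 of the 10 passed the test, 3 higher and 5 lower, beside 52% of all genes (25.4% higher, 26.7% lower), and 9 of the 10 had libraries that did not overlap, beside 59.8%. The median of the 10 was -0.08, against -0.00 over all genes. Both comparisons share the DMSO libraries. Without FB23-2 replicate 2 the counts were 7 and 8, beside 54.2% and 49.8% of all genes.

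**Figure D2:**
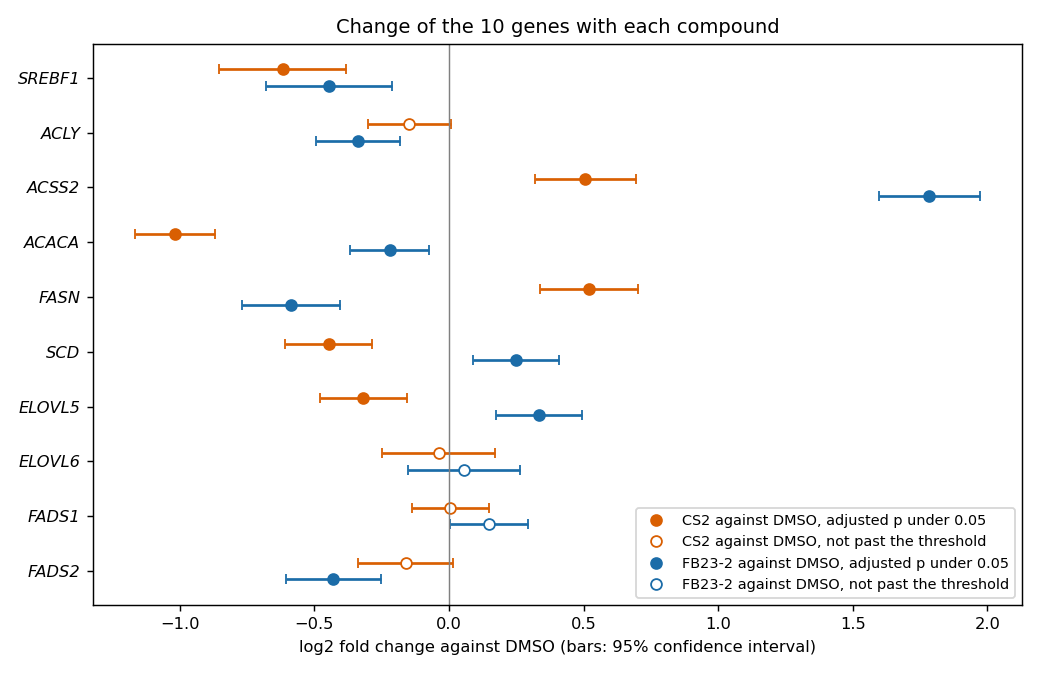
Log2 fold change of each gene with CS2 (orange) and with FB23-2 (blue) against DMSO, from edgeR; bars are 95% intervals, and filled points passed an adjusted p under 0.05. FASN, SCD and ELOVL5 lie on opposite sides of 0 for the 2 compounds, ACSS2 lies above 0 for both, and SREBF1, ACLY and ACACA lie below 0 for both.

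SREBF1, the regulator of the pathway, fell with both compounds. Its level was 93.4, 77.5 and 89.9 CPM in the DMSO libraries, 62.0, 52.6 and 55.5 with CS2, and 74.8, 51.6 and 65.3 with FB23-2. Every treated library was below every DMSO library, and the FB23-2 libraries spread the widest. Its log2 fold change was -0.62 ± 0.11 (SE) with CS2, 1.53-fold lower (edgeR adjusted p = 0.000148), and -0.45 ± 0.11 with FB23-2, 1.36-fold lower (edgeR adjusted p = 0.00247). The compounds differed by 0.17 (95% interval -0.07 to 0.41), which did not pass (edgeR adjusted p = 0.203). Without FB23-2 replicate 2, the lowest library of its group, that difference was 0.31 (adjusted p = 0.00445, edgeR), and the change from DMSO to FB23-2 was -0.31. A correction for GC content and gene span, described below with ACACA, took the difference between the compounds to 0.56 (edgeR adjusted p = 9.13e-06). SREBF1 lies at chr17:17810399-17837002 on the minus strand, and 6.92% of its exon bases overlap exons of RAI1 on the other strand, whose reads cannot be told apart where the counting did not use strand.

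The acetyl-CoA suppliers moved apart. ACSS2, which activates acetate, was at 27.1, 22.3 and 24.7 CPM with DMSO, 34.8, 34.4 and 36.1 with CS2, and 85.5, 81.1 and 88.8 with FB23-2. The 3 groups did not overlap, and each was narrow beside the gaps between them. On the log2 scale the change was 0.51 ± 0.09 with CS2, a 1.42-fold rise (edgeR adjusted p = 0.000109), and 1.78 ± 0.09 with FB23-2, a 3.44-fold rise (edgeR adjusted p = 5.86e-12). This was the largest change of the 10 genes in either comparison with DMSO. Among tested protein-coding genes ACSS2 moved from above 47.9% to above 56.9% with CS2 and 79.0% with FB23-2. ACLY, the citrate lyase, was at 971, 896 and 931 CPM with DMSO, 849, 848 and 829 with CS2, and 743, 667 and 806 with FB23-2. Both treated groups lay under the lowest DMSO library. With FB23-2 the log2 fold change was -0.34 ± 0.07, 1.26-fold lower (edgeR adjusted p = 0.000843). With CS2 it was -0.15 ± 0.07 (95% interval -0.30 to 0.01) and did not pass (edgeR adjusted p = 0.109), although it did without FB23-2 replicate 2, which enters the shared estimate of spread (-0.15, edgeR adjusted p = 0.0434), and under the correction for GC content and span (-0.22, edgeR adjusted p = 0.00781). ACLY lies at chr17:41866908-41930542 on the minus strand and ACSS2 at chr20:34872146-34927962 on the plus strand.

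The 2 enzymes that turn acetyl-CoA into palmitate moved in opposite directions with CS2. ACACA, the carboxylase known as the committed step, was at 245, 237 and 261 CPM with DMSO, 123, 117 and 128 with CS2, and 213 in each FB23-2 library. CS2 libraries sat far below all others, and FB23-2 libraries between the other groups. ACACA changed by -1.02 ± 0.07 (log2) with CS2, 2.02-fold lower (edgeR adjusted p = 7.15e-10), and -0.22 ± 0.07 with FB23-2, 1.16-fold lower (edgeR adjusted p = 0.0131). The FB23-2 change did not pass without DMSO replicate 3 (-0.18, edgeR adjusted p = 0.0913). ACACA spans 321.8 kb at chr17:37084988-37406818 on the minus strand, far more than any other of the 10 genes. A correction for the dependence of each library's counts on GC content and gene span, which also takes out any change by compound that follows those properties, left a fall of -0.33 with CS2 (edgeR adjusted p = 0.000154) and ended the call with FB23-2 (-0.06, edgeR adjusted p = 0.446).

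FASN, the synthase, was at 966, 858 and 930 CPM with DMSO, 1414, 1289 and 1245 with CS2, and 643, 523 and 669 with FB23-2. The 3 groups did not overlap, and DMSO lay between the compounds. FASN changed by 0.52 ± 0.09 (log2) with CS2, a 1.43-fold rise (edgeR adjusted p = 5.68e-05), and -0.59 ± 0.09 with FB23-2, 1.5-fold lower (edgeR adjusted p = 1.36e-05). FASN is the shortest of the 10 genes but one (20.0 kb at chr17:82078333-82098332, minus strand) and the richest in GC. The correction for GC content and span left 0.24 with CS2 (edgeR adjusted p = 0.00357). Per length, the ratio of FASN to ACACA was 5.48, 5.03 and 4.95 with DMSO, 16.0, 15.4 and 13.5 with CS2, and 4.20, 3.41 and 4.37 with FB23-2. The ratio was thus raised about equally in all 3 CS2 libraries and was lowest in FB23-2 replicate 2. It carries no correction for GC content and span, and that correction lowered the CS2 changes of both genes.

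SCD and ELOVL5 fell with CS2 and rose with FB23-2. SCD, the desaturase that makes monounsaturated acyl chains, was at 609, 504 and 549 CPM with DMSO, 399, 425 and 394 with CS2, and 620, 670 and 685 with FB23-2. CS2 libraries lay below every DMSO library and FB23-2 libraries above, by a small margin over DMSO replicate 1. SCD changed by -0.45 ± 0.08 (log2) with CS2, 1.36-fold lower (edgeR adjusted p = 7.87e-05), and 0.25 ± 0.08 with FB23-2, 1.19-fold higher (edgeR adjusted p = 0.0106). The rise did not pass without DMSO replicate 2, the lowest of its group (0.19, edgeR adjusted p = 0.0889). ELOVL5, an elongase of polyunsaturated chains, was at 380, 364 and 342 CPM with DMSO, 275, 304 and 292 with CS2, and 415, 489 and 464 with FB23-2. No group overlapped another. ELOVL5 changed by -0.32 ± 0.08 (log2) with CS2, 1.25-fold lower (edgeR adjusted p = 0.00189), and 0.33 ± 0.08 with FB23-2, 1.26-fold higher (edgeR adjusted p = 0.00117). The correction for GC content and span took the ELOVL5 rise with FB23-2 to 0.16 (edgeR adjusted p = 0.0404). SCD lies at chr10:100347124-100364834 on the plus strand and ELOVL5 at chr6:53267398-53349179 on the minus strand, and 4.42% of the 50-base windows of SCD exons occur elsewhere in annotated transcripts.

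ELOVL6, the elongase of saturated chains, passed no test. It was at 27.4, 31.1 and 27.4 CPM with DMSO, 28.3, 28.1 and 27.2 with CS2, and 26.1, 32.5 and 30.6 with FB23-2, and all groups overlapped. The log2 fold change was -0.04 (95% interval -0.25 to 0.17, edgeR adjusted p = 0.775) with CS2 and 0.06 (95% interval -0.15 to 0.26, edgeR adjusted p = 0.659) with FB23-2. Neither interval reached the change of ELOVL5 with the same compound (-0.32 and 0.33). ELOVL6 spans 153.4 kb at chr4:110045846-110199199 on the minus strand, and the GC and span correction turned its change with CS2 to 0.22 (edgeR adjusted p = 0.0433).

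FADS1 and FADS2, the desaturases of polyunsaturated chains, lie on opposite strands of chromosome 11, the annotated span of FADS1 falling within that of FADS2 (chr11:61799625-61829318, minus, and chr11:61792980-61867354, plus). Their exons overlap in part, 5.57% of FADS1 and 4.89% of FADS2 exon bases being shared with a neighbouring gene, and reads there are uncertain. FADS2 was at 725, 597 and 671 CPM with DMSO, 611, 596 and 574 with CS2, and 472, 454 and 554 with FB23-2. FB23-2 libraries lay below all others, while CS2 libraries overlapped DMSO. The log2 fold change of FADS2 was -0.43 ± 0.08 with FB23-2, 1.35-fold lower (edgeR adjusted p = 0.000286), and -0.16 ± 0.08 with CS2 (95% interval -0.34 to 0.02), which did not pass (edgeR adjusted p = 0.122). The CS2 value was -0.23 without DMSO replicate 2 (edgeR adjusted p = 0.0495) and -0.29 under the correction for GC content and span (edgeR adjusted p = 0.00249). FADS1 was at 582, 528 and 553 CPM with DMSO, 544, 585 and 541 with CS2, and 602, 631 and 610 with FB23-2. All FB23-2 libraries were above all others, by a narrow margin. The log2 fold change of FADS1 was 0.15 ± 0.07 with FB23-2 (95% interval 0.00 to 0.29, edgeR adjusted p = 0.0787) and 0.01 ± 0.07 with CS2 (95% interval -0.14 to 0.15, edgeR adjusted p = 0.955), neither passing.

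**Figure D3:**
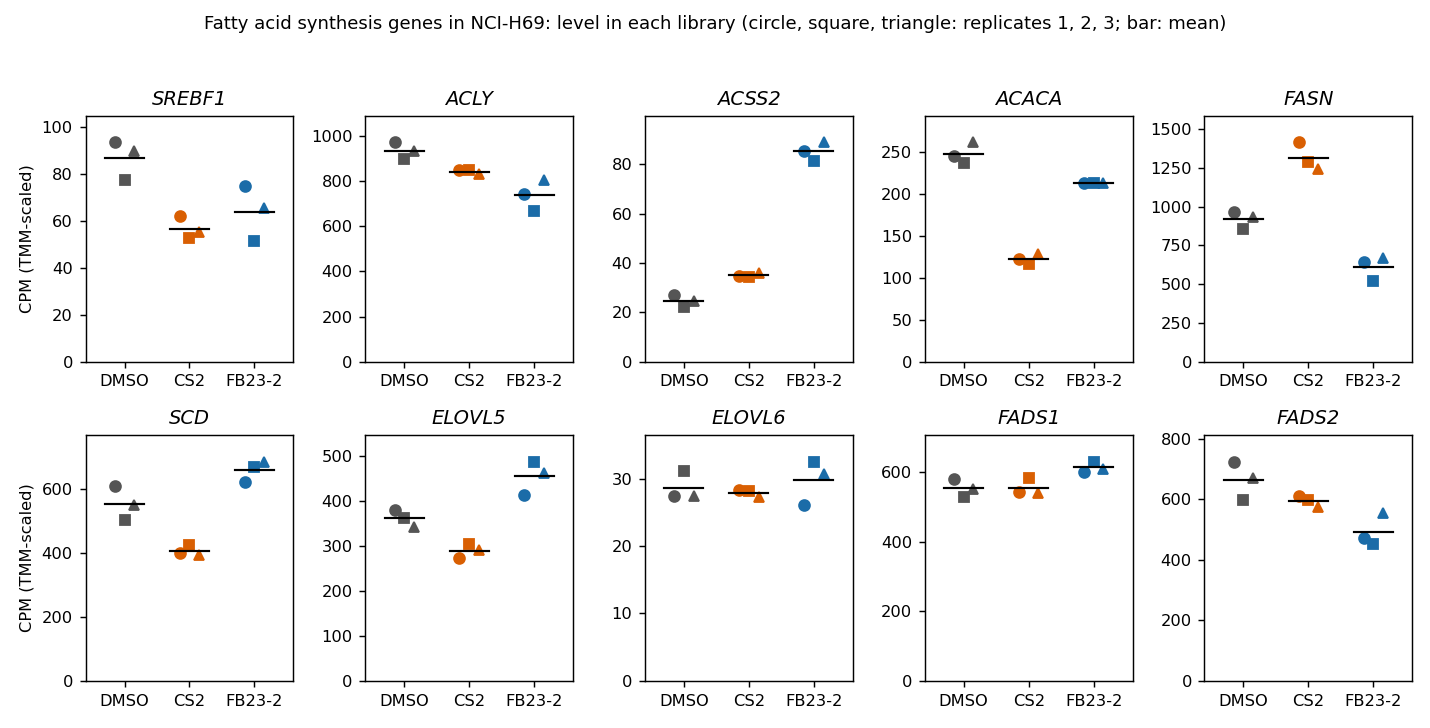
Level of each gene in each library (CPM, each panel from 0); circle, square and triangle are replicates 1, 2 and 3, and the bar is the group mean. SCD and ELOVL5 are lowest with CS2 and highest with FB23-2, FASN is highest with CS2 and lowest with FB23-2, and ELOVL6 and FADS1 differ little between groups.

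Tested directly against each other, the compounds differed most in ACSS2, FASN, ACACA, SCD and ELOVL5. With FB23-2 compared with CS2, 7 of the 10 genes passed, 4 higher and 3 lower, beside 59.6% of all genes (29.7% higher, 30% lower), and 8 of the 10 did not overlap, beside 62.9%. Their median log2 difference was 0.16, against 0.01 over all genes. ACSS2 was 2.43-fold higher with FB23-2 (log2 difference 1.28 ± 0.09, edgeR adjusted p = 3.55e-10). FASN was 2.15-fold lower (-1.11 ± 0.09, edgeR adjusted p = 2.26e-09). ACACA was 1.74-fold higher (0.80 ± 0.07, edgeR adjusted p = 1.12e-08), SCD 1.62-fold higher (0.70 ± 0.08, edgeR adjusted p = 2.29e-07) and ELOVL5 1.57-fold higher (0.65 ± 0.08, edgeR adjusted p = 5.1e-07). The correction for GC content and span took the ACACA difference to 0.27 and that of FASN to -0.64, both still past the test. The compounds come with no matched dose, so these values describe the treatments as given.

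FADS2 was lower with FB23-2 than with CS2 (-0.27 ± 0.08, edgeR adjusted p = 0.0101), a difference of -0.04 after the correction for GC content and span (edgeR adjusted p = 0.618). ACLY was lower by a little (-0.19 ± 0.07, edgeR adjusted p = 0.0345), and the call was lost under 10 of 19 alternatives: on leaving out any single CS2 library, DMSO replicate 3, or FB23-2 replicate 1 or 2 (without FB23-2 replicate 2, -0.12 with edgeR adjusted p = 0.133), with scaling by library size alone, with only the 2 groups fitted, and under the GC and span correction without and with a replicate block (-0.11 and -0.12). No difference between compounds passed for ELOVL6 (0.09, 95% interval -0.11 to 0.30, edgeR adjusted p = 0.433) or FADS1 (0.14, 95% interval -0.00 to 0.29, edgeR adjusted p = 0.0815). Under the correction for GC content and span both passed, ELOVL6 in the other direction (-0.27, edgeR adjusted p = 0.0109) and FADS1 at 0.21 (edgeR adjusted p = 0.00431).

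Ratios within a library show how the balance between transcripts shifted, free of library scaling but not of any dependence on GC content and span. They were not corrected for GC content and span. That correction took the CS2 change of ACACA from -1.02 to -0.33 and that of FASN from 0.52 to 0.24. The ratio of SCD to FASN per length was 1.10, 1.03 and 1.03 with DMSO, 0.493, 0.576 and 0.553 with CS2, and 1.69, 2.24 and 1.79 with FB23-2. Desaturase transcript thus stood near synthase transcript with DMSO, under it with CS2 and above it with FB23-2, with no overlap. ACSS2 relative to ACLY was 0.0256 ± 0.0014 (SD, n = 3) with DMSO, 0.0404 ± 0.0016 with CS2 and 0.112 ± 0.0055 with FB23-2, so that citrate lyase transcript stayed well in excess in all groups. FADS1 relative to FADS2 was 0.903 ± 0.046, 1.01 ± 0.049 and 1.35 ± 0.16 in the same order, highest in FB23-2 replicate 2. Which of these 2 genes was higher depends on the length used. Per length of the longest principal transcript, FADS1 and FADS2 were at 123 and 183 FPKM with DMSO, 123 and 164 with CS2, and both at 136 with FB23-2. ELOVL5 relative to ELOVL6 was 24.3, 20.0 and 29.4. SCD relative to ELOVL5 moved little, at 1.09, 0.996 and 1.03, as did ACLY relative to FADS2, at 2.98, 3.00 and 3.17.

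**Figure D4:**
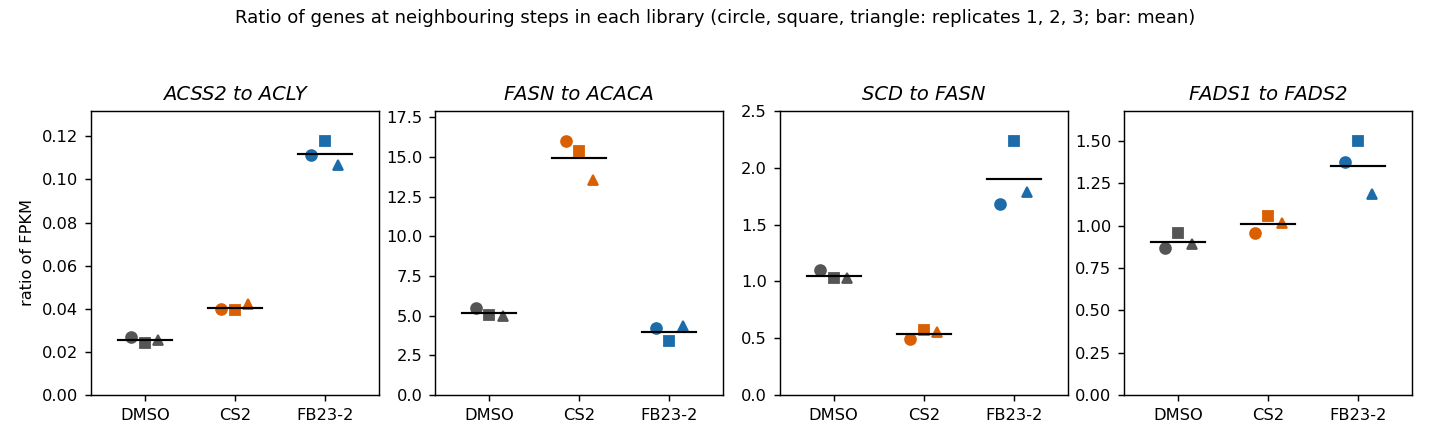
Ratios of FPKM between genes of the pathway in each library, not corrected for GC content and span (vertical axes from 0, no unit). Circle, square and triangle are replicates 1, 2 and 3, and the bar is the group mean. FASN to ACACA is highest with CS2, and ACSS2 to ACLY, SCD to FASN and FADS1 to FADS2 are highest with FB23-2.

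Across the 9 libraries, the closest profiles among the 10 genes were those of ACLY and FADS2 (root mean square difference of centred log2 CPM 0.0649), SCD and ELOVL5 (0.0875), and ELOVL6 and FADS1 (0.113). The same measure was taken against 10010 genes for the 3 members with the largest F over the groups. ACSS2 (F = 229) was most like CAST (0.130), PSAT1 (0.141) and TFRC (0.144), with a median of 0.787 over all genes. ACACA (F = 107) was most like ZDHHC14 (0.0468), MCCC1 (0.0690) and HNRNPA1 (0.0742), with a median of 0.504. FASN (F = 79.4) was most like MANEAL (0.0462), CCDC22 (0.0653) and EHMT2 (0.0737), with a median of 0.515. The measure rests on library profiles alone, and libraries share depth and composition.

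The genes that control or feed the pathway moved in both directions. The counts for this and the following lists are set beside 24.3% of all genes higher and 25.3% lower with CS2, and 25.4% higher and 26.7% lower with FB23-2. Of 10 tested SREBP regulators, 4 were higher and 4 lower with CS2, and 4 higher and 1 lower with FB23-2. NR1H3, a liver X receptor that acts on SREBF1, rose from 10.9 ± 0.29 CPM (SD, n = 3) with DMSO to 20.9 ± 1.8 with CS2 and 19.4 ± 1.1 with FB23-2 (edgeR adjusted p = 5.77e-07 and 2.53e-06). NR1H2, the other liver X receptor, fell with CS2 from 44.1 ± 2.7 to 27.1 ± 3.3 CPM (edgeR adjusted p = 1.67e-05) and was at 39.8 ± 4.5 with FB23-2 (edgeR adjusted p = 0.247). MLXIPL, the carbohydrate-responsive partner of SREBP1 in lipogenesis, rose with both compounds. It was at 6.44 ± 1.2 CPM with DMSO, 10.7 ± 2.0 with CS2 and 18.7 ± 1.3 with FB23-2 (edgeR adjusted p = 0.000578 and 6.11e-08). INSIG1, which holds SREBP in the endoplasmic reticulum, was at 272 ± 25 CPM with DMSO, 171 ± 7.0 with CS2 and 308 ± 13 with FB23-2, and differed between the compounds (log2 difference 0.85 ± 0.08, edgeR adjusted p = 1.43e-08). MID1IP1, an activator of ACACA polymerisation, fell with CS2 (-0.76 ± 0.08, edgeR adjusted p = 9.18e-08). It was also lower with FB23-2, at 116 ± 1.2 CPM against 161 ± 7.9 with DMSO. Of the 7 tested subunits and regulators of AMPK, the kinase that inactivates ACACA, 1 was higher and 1 lower with CS2, and 2 higher and 2 lower with FB23-2.

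Among 8 genes of citrate export, malonyl-CoA turnover and NADPH supply, 3 were higher and 3 lower with CS2, and 5 higher and none lower with FB23-2 (median 0.30). ACSS1, the mitochondrial counterpart of ACSS2, rose 2.13-fold with CS2 and 2.86-fold with FB23-2 (edgeR adjusted p = 2.69e-07 and 2.55e-09). IDH1, a source of NADPH, rose from 52.9 ± 1.2 to 98.8 ± 7.6 CPM with FB23-2 (edgeR adjusted p = 2.79e-08). ME1, the malic enzyme, was at 0.598 ± 0.42 CPM with DMSO and 2.90 ± 0.15 with FB23-2 (edgeR adjusted p = 1.81e-05), a low level in all groups. Of 7 tested cholesterol synthesis genes, the textbook targets of the sister factor SREBP2, 1 was higher and 3 lower with CS2, and 5 were higher and none lower with FB23-2, where 25.4% of all genes were higher. HMGCS1 fell with CS2 (-0.43 ± 0.08, edgeR adjusted p = 0.000168) and LSS rose with FB23-2 (0.53 ± 0.11, edgeR adjusted p = 0.000634).

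Of 9 other tested elongation enzymes, 4 were higher and 1 lower with CS2, and 6 higher and none lower with FB23-2 (median 0.55). ELOVL4, an elongase of very long chains, rose 2.2-fold with CS2 and 1.6-fold with FB23-2 (edgeR adjusted p = 1.62e-08 and 1.04e-05). HSD17B12, the ketoacyl reductase of the cycle, was at 53.8 ± 2.3 CPM with DMSO, 37.0 ± 4.4 with CS2 and 91.0 ± 15 with FB23-2, and passed in both directions (edgeR adjusted p = 0.000483 and 9.63e-06), the CS2 fall of -0.54 being -0.20 after the correction for GC content and span. That correction took the ELOVL4 rise with FB23-2 from 0.68 to 0.44. Of HSD17B12 exon bases, 21.6% overlap other genes. Of 5 other tested desaturation genes none passed with CS2. With FB23-2 the desaturase-like FADS3 rose 1.99-fold (edgeR adjusted p = 8.35e-07), and 3 fell. Among those 3 was CYB5A, an electron donor in desaturation (-0.42 ± 0.08, edgeR adjusted p = 0.000156, and -0.66 after the same correction).

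Downstream, some genes of lipid assembly and storage, DGAT2 and PLIN2 among them, rose with CS2 and fell with FB23-2, while others did not. Of 9 glycerolipid assembly genes, 4 were higher and 2 lower with CS2, and 3 higher and 4 lower with FB23-2. DGAT2, which makes triacylglycerol, was at 29.3 ± 1.3 CPM with DMSO, 56.8 ± 1.1 with CS2 and 20.7 ± 2.1 with FB23-2 (edgeR adjusted p = 6.15e-08 and 0.000162). PLIN2, the lipid droplet coat protein, was at 81.2 ± 3.3, 146 ± 7.1 and 44.6 ± 2.4 CPM (edgeR adjusted p = 2.63e-08 and 2.26e-08). Of the 7 tested genes of uptake, binding and storage, 3 were higher and 1 lower with CS2, and none higher and 4 lower with FB23-2 (median -0.84), where 26.7% of all genes were lower. FABP5, a fatty acid binding protein, fell 2.18-fold with FB23-2 (edgeR adjusted p = 2.11e-09). Of 10 tested oxidation genes, 5 were higher and none lower with CS2, and 6 higher and 1 lower with FB23-2, where 24.3% and 25.4% of all genes were higher. ACADVL, which starts the oxidation of long chains, rose 1.82-fold and 1.58-fold (edgeR adjusted p = 2.55e-07 and 6.74e-06), and PPARA, the receptor that drives oxidation genes, rose 4.78-fold with FB23-2 (edgeR adjusted p = 1.53e-10). CPT1A, at a low level, fell with FB23-2 from 2.83 ± 0.30 to 1.65 ± 0.33 CPM (edgeR adjusted p = 0.00706). Of 7 tested acyl-CoA ligases, 2 were higher and 2 lower with CS2, and 4 higher and 1 lower with FB23-2. ACSL6, of whose exon bases 15.8% overlap other genes, moved from 18.5 ± 0.42 CPM with DMSO to 30.1 ± 2.3 with CS2 and 10.99 ± 0.55 with FB23-2 (edgeR adjusted p = 8.18e-06 and 4.63e-06).

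**Figure D5:**
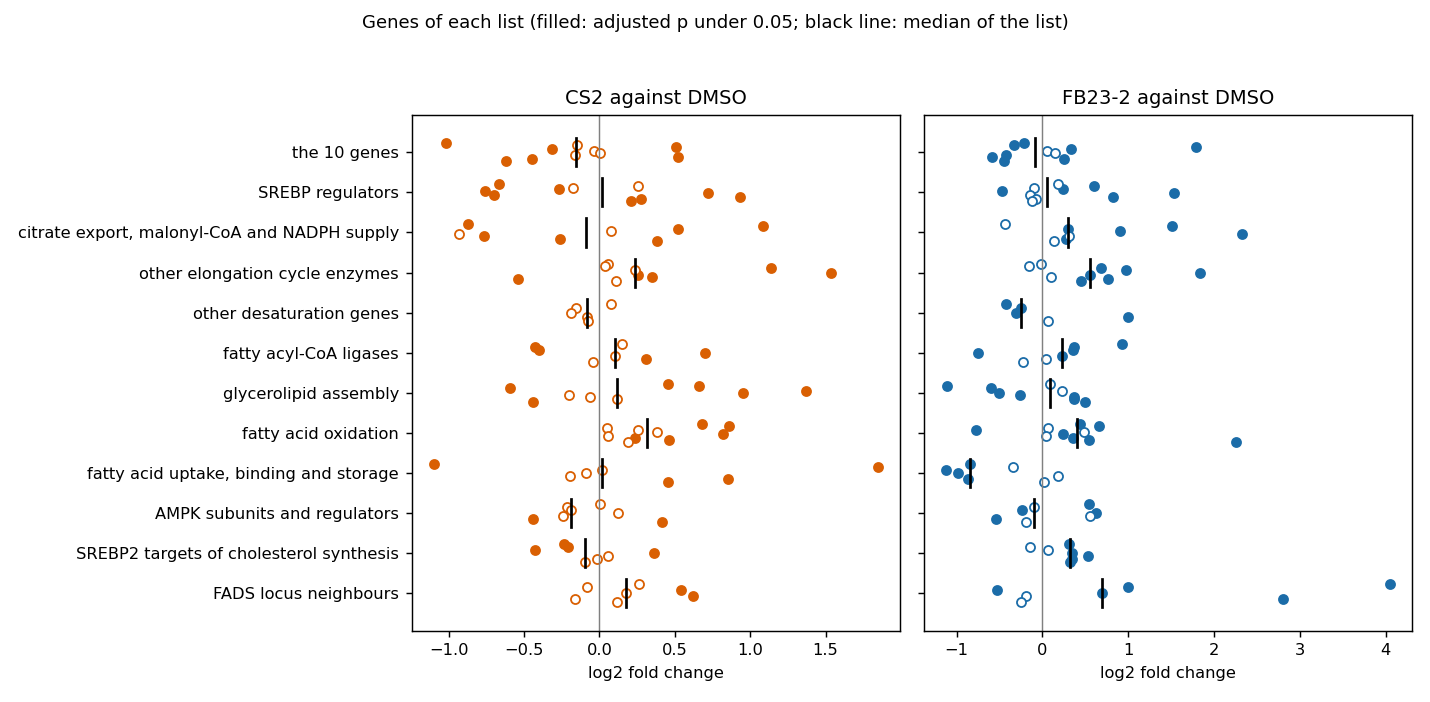
Log2 fold change of every tested gene of each list with CS2 and with FB23-2 against DMSO, from edgeR; filled points passed an adjusted p under 0.05 and the bar is the list's median. The 10 members spread on both sides of 0 with medians of -0.15 and -0.08, and the uptake, binding and storage list has a median of -0.84 with FB23-2.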

How the data were processed

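RNA from NCI-H69 cells was sequenced as mRNA libraries. The deposited values are raw counts per gene made by the authors, on the hg38 build (per the submitters' processing notes); the aligner, counter, strand setting and annotation remain not given in the sources used here. The column label FB23 was read as FB23-2. From the counts, edgeR 4.0.16 in R 4.3.3 (filterByExpr, TMM, robust quasi-likelihood test, 1 fit over 9 libraries, no block, Benjamini-Hochberg over 19781 genes) gave fold changes, SE and 95% intervals, and TMM-scaled CPM and FPKM. Positions and exon lengths came from GENCODE 29, which held 58261 of the 62754 gene IDs. Symbols came from a separate list of gene names, and from GENCODE 29 where that list gave none. p-values measure the spread between these libraries. All 10 members are named; other lists are described by counts, with up to 3 passing genes of at least 1 CPM and largest change eligible for naming per comparison, and likeness used genes of at least 10 CPM. Members and lists were chosen with earlier results of these data known. A further marker gene of the neuroendocrine list is not reported here. Replicate numbers were not used to pair the samples in the main fit, and the labels do not say whether they do. Alternatives tried were DESeq2 1.42.0 (its own size factors), RLE size factors in edgeR, library size alone and no filter. Others were a mean of at least 1 CPM, only the 2 groups compared, each library left out and no mitochondrial genes. The replicate number as a block and a correction for GC content and span were tried each alone and together. The longest principal transcript as length was added after seeing the data. The edgeR script was tested on simulated data. Promoters came from RefSeq (GRCh38.p14).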

Additional observations from a re-analysis of the deposited data

How the results depend on the processing

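The number of members that passed was 6 to 9 with CS2, 6 to 8 with FB23-2 and 6 to 8 between the compounds over 19 alternatives each (6 to 7, 7 to 8 and 6 to 7 on leaving out 1 library). Over the same alternatives 25.5 to 56.8%, 26.8 to 59.1% and 31.3 to 66% of all genes passed, the lowest shares with no filter on low counts. Of 570 recomputed fold changes of members, 526 kept their direction and side of the threshold, 17 lost a call, 14 gained one and 13 changed sign, all of ELOVL6 or FADS1. Under the correction for GC content and span, without and with the replicate block, ELOVL6 was at 0.22 and 0.22 with CS2, -0.0557 and -0.0558 with FB23-2, and -0.27 and -0.27 between the compounds, and FADS1 at -0.10 and -0.10 with CS2. ELOVL6 was at 0.0222 with CS2 without DMSO replicate 2 and -0.0110 with FB23-2 without FB23-2 replicate 2, and over the left-out libraries its CS2 change ran from -0.0705 to 0.0222 and its FB23-2 change from -0.0110 to 0.153. FADS1 with CS2 was between -0.0298 and 0.0432 on leaving out 1 library, below 0 without DMSO replicate 2 or CS2 replicate 2, and at -0.00457 with a filter at a mean of 1 CPM. The GC and span correction also lowered the changes of the long ACACA and the GC-rich FASN given above, and the cause was not tested. Over the 19 alternatives the fall of SREBF1 with CS2 ran from -0.88 to -0.56, and from -0.69 to -0.56 on leaving out 1 library. The fall of FASN with FB23-2 ran from -0.64 to -0.41, and from -0.64 to -0.48 on leaving out 1 library. With FB23-2, the rise of ELOVL5 lost its call with the replicate block and the correction together (0.16, edgeR adjusted p = 0.0518). FADS1 passed between the compounds with a filter at a mean of 1 CPM (0.16) and with the correction (0.21). ACLY passed with CS2 when only the 2 groups were fitted (-0.14). With the replicate number as a block, 6, 8 and 7 members passed, beside 51.9%, 54.1% and 61.4% of all genes, and the block changed no member's call; same-numbered deviations correlated between -0.03 and 0.17, over 0.1 in 2 of 9 pairs. With the length of the longest principal transcript, DMSO levels became 215 FPKM for ACLY, 183 for FADS2, 128 for ELOVL5, 123 for FADS1, 107 for FASN, 25.9 for ACACA, 20.8 for SREBF1, 8.06 for ACSS2 and 4.44 for ELOVL6, while SCD stayed at 103. Without FB23-2 replicate 2, changes with FB23-2 were -0.48 for FASN, -0.37 for FADS2 and -0.27 for ACLY. Depth did not limit the members, whose lowest level was 22.3 CPM.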

Other observations

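The neighbourhood of FADS1 and FADS2 on chromosome 11 was also measured. Of 7 flanking genes, 2 were higher and none lower with CS2, beside 24.3% of all genes higher and 25.3% lower. With FB23-2, 4 were higher and 1 lower, beside 25.4% and 26.7% of all genes, and their median log2 fold change was 0.69. BEST1, a chloride channel gene, was at 1.76 ± 0.36 CPM (SD, n = 3) with DMSO, 2.13 ± 0.28 with CS2 and 29.7 ± 2.7 with FB23-2, a log2 fold change of 4.05 ± 0.16 (edgeR adjusted p = 1.52e-13). Part of its exons, 14.2%, overlaps FTH1, the ferritin heavy chain gene, so some of its reads are uncertain. FTH1 was far more abundant, at 300 ± 22 CPM with DMSO, 339 ± 5.0 with CS2 and 484 ± 128 with FB23-2. The share of FTH1 reads in the BEST1 change was not tested. RAB3IL1 rose from 0.380 ± 0.068 to 2.63 ± 1.2 CPM with FB23-2 (edgeR adjusted p = 6.3e-06). FEN1, a flap endonuclease gene whose exons overlap FADS2, was at 369 ± 9.1 CPM with DMSO, 538 ± 19 with CS2 and 256 ± 47 with FB23-2, and rose with CS2 (0.54 ± 0.10, edgeR adjusted p = 0.000109) while FADS2 did not pass. FADS2 and FADS3 lie in the same cluster and moved in opposite directions with FB23-2, at -0.43 and 0.99 on the log2 scale.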
